A study of Mus musculus with 12 samples.

Results

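Ephrins and Eph receptors were followed in RNA-Seq data of osteoblasts from mice given parathyroid hormone (PTH) and of osteoblastic cells made to overexpress *Slpi*. By symbol, 10 genes were taken, the ligand genes *Efna1*, *Efna2*, *Efna5*, *Efnb1* and *Efnb2* and the receptor genes *Epha2*, *Epha4*, *Ephb2*, *Ephb3* and *Ephb4*. All 10 were listed in each of the 12 libraries, among 23284 genes in the osteoblast files and 24346 in the cell line files. They are 10 of the 22 ephrin and Eph genes of the mouse considered here, and they held between 91.3% and 94.4% of the summed expression of these 22 genes in the osteoblast libraries. In the cell line libraries, they held between 92.0% and 94.1%.

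Osteoblasts were sorted from female Col2.3-ECFP mice, aged 12 weeks at the start, which carry a cyan fluorescent reporter under a fragment of the type I collagen promoter that is active in mature osteoblasts. The 3 vehicle libraries came from mice given PBS, and the 3 PTH libraries from mice given human PTH(1-34) subcutaneously in daily doses of 40 µg/kg, given 5 days a week over 3 weeks. Cells negative for 7AAD, lineage markers and CD45 and positive for ECFP were collected 24 h after the last injection. MC3T3-E1 is an osteoblastic line from mouse calvaria, and its cells were transduced with a puromycin-resistance retroviral vector, either empty (mock, 3 libraries) or with *Slpi* cDNA (Slpi, 3 libraries), so that both groups carry the vector. Transduced cells were selected with puromycin. *Slpi* encodes secretory leukocyte protease inhibitor. Its FPKM was 1.64, 2.38 and 2.62 with vehicle and 37.5, 19.8 and 27.2 with PTH, and 377, 396 and 386 in mock and 2105, 1973 and 1848 in Slpi libraries. The labels do not say whether libraries of a group came from separate animals or cultures, so *p* values measure the spread between these libraries only.

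Ephrins and Eph receptors pass signals between touching cells. Eph receptors are tyrosine kinases, and binding of an ephrin starts forward signaling in the receptor-bearing cell and reverse signaling in the ephrin-bearing cell. Ephrin-A ligands are held to the membrane by a lipid anchor and mostly bind EphA receptors, whereas ephrin-B ligands span the membrane and mostly bind EphB receptors. In bone, ephrin-B2 (*Efnb2*) on osteoclasts and EphB4 (*Ephb4*) on osteoblasts form a contact pair known to couple resorption and formation, and *Efnb2* is also expressed by osteoblasts.

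Promoter sequences are shown for 3 genes. *Efnb2* and *Ephb4* are shown as the coupling pair, and *Epha2* as the most highly expressed receptor gene in sorted osteoblasts. The 250 bases before the RefSeq transcription start (GRCm38.p6, the assembly also called mm10) are printed 5′ to 3′ on the strand of the gene, and lie outside the annotated gene. For *Efnb2* this is the minus strand of chr8:8661243-8661492, for *Ephb4* the plus strand of chr5:137349859-137350108 and for *Epha2* the plus strand of chr4:141300971-141301220. PTH signals in osteoblasts through cAMP, and capitals mark the letters TGACG, the core of the cAMP response element, on either strand.
Efnb2: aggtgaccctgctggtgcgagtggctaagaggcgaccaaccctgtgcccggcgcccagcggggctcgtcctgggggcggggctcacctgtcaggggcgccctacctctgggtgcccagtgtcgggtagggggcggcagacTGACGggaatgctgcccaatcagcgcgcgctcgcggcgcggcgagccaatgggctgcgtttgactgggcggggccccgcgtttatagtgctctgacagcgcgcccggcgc
Ephb4: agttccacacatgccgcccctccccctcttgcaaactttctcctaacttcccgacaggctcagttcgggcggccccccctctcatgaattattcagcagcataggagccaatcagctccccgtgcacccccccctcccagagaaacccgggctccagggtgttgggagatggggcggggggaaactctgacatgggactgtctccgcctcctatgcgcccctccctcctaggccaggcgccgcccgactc
Epha2: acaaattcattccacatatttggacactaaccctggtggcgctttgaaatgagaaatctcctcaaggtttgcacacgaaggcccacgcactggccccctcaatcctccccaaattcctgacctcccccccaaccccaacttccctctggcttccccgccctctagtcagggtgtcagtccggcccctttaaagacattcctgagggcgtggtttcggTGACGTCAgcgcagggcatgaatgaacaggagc
The full element TGACGTCA, which contains the core on both strands, occurs in the *Epha2* window, where it begins 33 bases before the start. *Epha2* was the 1 gene of the 10 with it, against 1.55% of 32851 promoters of the same length. The core, whether or not within the full element, was found in 5 of the 10 genes, *Efnb1*, *Efnb2*, *Epha2*, *Epha4* and *Ephb3*, against 17.8% of promoters. In *Efnb2* it begins 110 bases before the start, and the *Ephb4* window does not contain it. The letters TGTGGT, bound by RUNX factors, and CTTTGAT, bound by TCF/LEF factors, were sought on both strands and were in none of the 10 genes' windows, against 14% and 3.21% of promoters. GC content was 72% for *Efnb2*, 64% for *Ephb4* and 55.6% for *Epha2*, with a median of 52.4% over all promoters. The windows of all 10 genes lay above this median, between 55.6% and 74.8%. The shares over all promoters were not matched for GC content, so no enrichment is read from them. The sites are matches of letters, and binding was not measured.

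Expression was given as FPKM, the fragments mapped to a gene after scaling for transcript length and library depth, which allows levels of different genes to be set side by side. Summed over all genes, FPKM ranged from 400839 to 462460 per osteoblast library and from 541932 to 599746 per MC3T3-E1 library. In sorted osteoblasts, the osteoblast genes *Bglap*, *Sp7*, *Runx2* and *Alpl* were expressed in each library, while *Col1a1* and *Col1a2* were listed at 0 in vehicle replicate 3 and in all PTH libraries. In vehicle replicates 1 and 2 the FPKM of *Col1a1* was 26216 and 24170, and such zeros in cells sorted by a type I collagen reporter can be failed estimates, so they are not read as expression. Markers of other cell types were present and differed between the groups. The summed FPKM of 12 leukocyte markers, *Ptprc* (CD45) among them, was between 234 and 360 with vehicle and between 12.9 and 83.4 with PTH, and that of 11 neutrophil markers was between 378 and 472 with vehicle and between 704 and 2367 with PTH. Heart muscle markers (7 genes) summed to 3428 in PTH replicate 2 and to at most 19.3 in the other libraries, and megakaryocyte markers (6 genes) to 196, 156 and 8.67 in PTH replicates 1, 2 and 3 against at most 8.56 with vehicle. Osteoclast markers (9 genes) summed to between 213 and 229 with vehicle and between 326 and 386 with PTH. *Ctsk* and *Nfatc1*, which MC3T3-E1 cells also expressed, made up most of this sum and were the 2 genes higher without overlap. *Acp5*, at most 0.103 FPKM in MC3T3-E1 cells, was at 8.31, 10.2 and 7.12 with vehicle. With PTH it was at 27.4, 25.4 and 9.88, so that the groups overlapped. *Oscar* was at 0 in 4 of 6 libraries, all vehicle libraries among them. Means of *Mmp9* and *Atp6v0d2* were lower with PTH, and *Calcr* and *Dcstamp* were at 0 in 5 of 6 libraries. Endothelial markers, which matter here because vessels use *Efnb2* and *Ephb4*, summed to between 17.7 and 18.7 with vehicle and between 10.8 and 17.2 with PTH over 12 genes. *Eng* and *Pecam1* carried most of this sum. Of the 12 genes, 2 (*Pecam1* and *Cldn5*) were lower in all PTH libraries than in all vehicle libraries, and 0 were higher without overlap. The defining genes *Cdh5*, *Kdr*, *Tek* and *Flt1* were each below 1 FPKM in all libraries and overlapped between the groups. Of these, all but *Tek* had a higher mean with PTH. In such bulk samples, fewer cells of a type and less RNA per cell cannot be told apart.

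**Figure D1:**
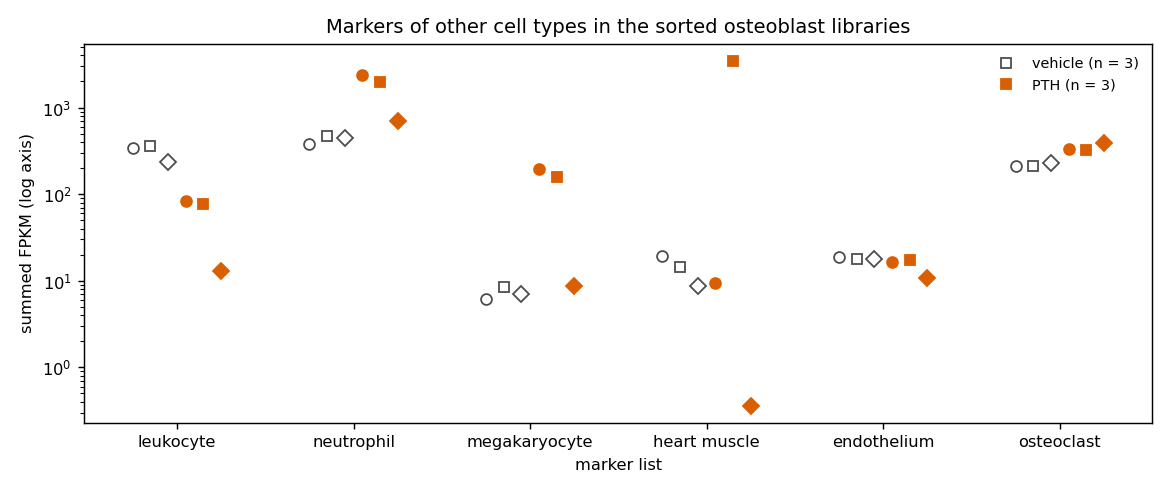
Summed FPKM (log axis) of 6 marker lists in each sorted osteoblast library, with open symbols for vehicle and filled symbols for PTH, and circles, squares and diamonds for replicates 1, 2 and 3. Leukocyte markers were lower in all PTH libraries (12.9 to 83.4, against 234 to 360 with vehicle), neutrophil markers were higher, and PTH replicate 2 stood apart for heart muscle markers at 3428.

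Within sorted osteoblasts, the 10 genes covered a wide range of levels. In vehicle libraries, the receptor gene *Epha2* was highest with a mean FPKM of 31.3 ± 3.68 (SD, n = 3), followed by *Efna1* at 18.4 ± 3.31, whose product is a preferred ligand of EphA2. *Efnb1* (11.6 ± 1.71) and *Efnb2* (8.42 ± 1.73) came next. These 4 genes each stood above the next in the order without overlap between libraries, except *Efnb2*, whose libraries overlapped with those of *Ephb3* at 6.30 ± 0.682. *Ephb4* was at 3.32 ± 0.387 and *Ephb2* at 2.49 ± 0.0338, each again clear of the next gene. *Efna5* (2.10 ± 0.400), *Epha4* (2.01 ± 0.238) and *Efna2* (1.32 ± 0.386) had the lowest levels, and neighbours among these 3 overlapped. With PTH, the order was the same from *Epha2* down to *Ephb3*, but *Efna1* and *Efnb1* then overlapped, as did each gene with the next from *Ephb2* to *Epha4*.

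In MC3T3-E1 cells, the order was different. *Efnb1*, the ephrin-B1 gene, was highest in mock libraries with an FPKM of 84.8 ± 3.04 (SD, n = 3), ahead of *Epha2* at 33.4 ± 0.877 and *Ephb4* at 30.6 ± 1.61. *Ephb3* (18.5 ± 0.223), *Efna1* (11.01 ± 0.568), *Efna5* (10.4 ± 0.343) and *Ephb2* (6.67 ± 0.186) followed, and of these only *Efna1* and *Efna5* overlapped. *Efnb2* was at 4.16 ± 0.245, *Epha4* at 3.08 ± 0.341 and *Efna2* at 2.10 ± 0.517, with no overlap between neighbours. The pair *Efnb2* and *Ephb4* thus stood in opposite order in the different cells, with *Efnb2* above *Ephb4* in sorted osteoblasts and *Ephb4* above *Efnb2* in the cell line. Sorted cells and cell line came from separate experiments normalized separately, and according to the labels they were prepared with different library kits, so no test was made between them.

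**Figure D2:**
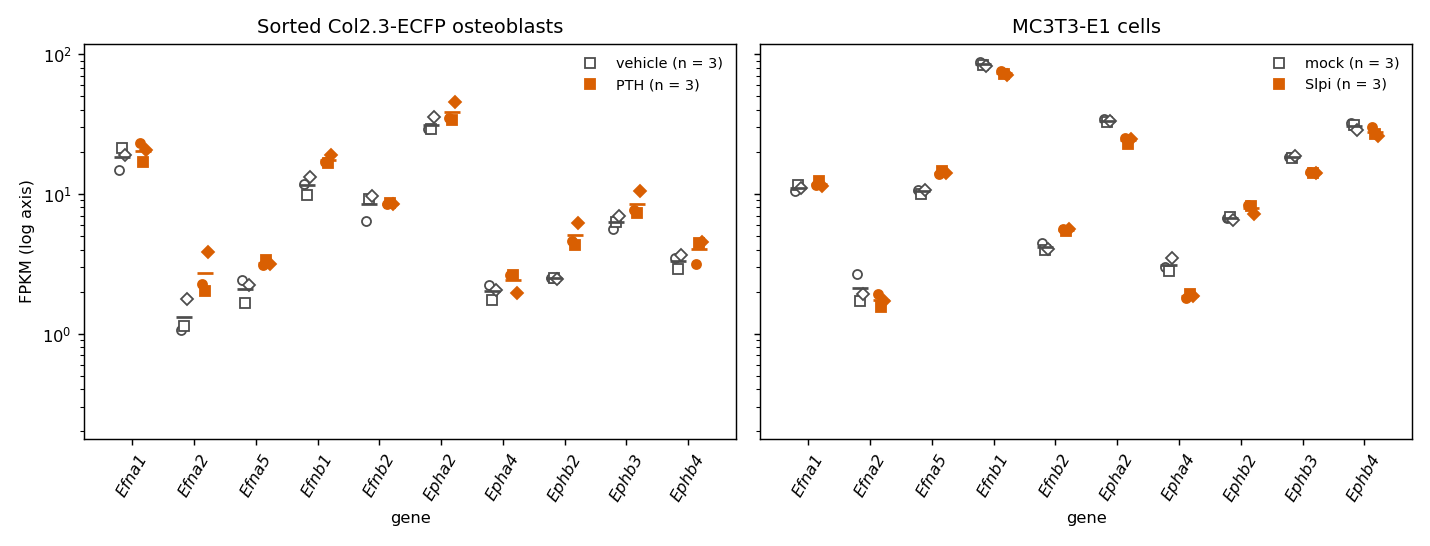
FPKM (log axis) of the 10 genes in each library of sorted osteoblasts and of MC3T3-E1 cells, with open symbols for vehicle or mock, filled symbols for PTH or Slpi, circles, squares and diamonds for replicates 1, 2 and 3, and a bar at each mean (n = 3). *Efnb2* lies above *Ephb4* in all sorted osteoblast libraries and below it in all MC3T3-E1 libraries, where *Efnb1* is highest.

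Summed by class over the 22 family genes, EphA receptors were the largest class in vehicle-treated osteoblasts, at 35.7 ± 4.54 FPKM or 38.1% of the family (SD, n = 3). Ephrin-A ligands made up 25.7%, ephrin-B ligands 21.9% and EphB receptors 14.3%. In mock MC3T3-E1 cells, ephrin-B ligands were the largest class at 89.5 ± 3.24 FPKM or 40.3%, followed by EphB receptors at 27.5%, while EphA receptors made up 16.8% and ephrin-A ligands 15.4%. EphB receptors summed to between 12.95 and 14.2 FPKM in vehicle libraries and between 16.9 and 22.7 in PTH libraries, and ephrin-B ligands to between 18.5 and 23.2 and between 26.4 and 27.9. EphA receptors summed to between 32.5 and 40.9 FPKM with vehicle and between 41.0 and 52.1 with PTH. The sums of these 3 classes did not overlap between the groups, by a small margin for EphA, whereas those of ephrin-A ligands did. As shares of the family, however, PTH and vehicle libraries overlapped for all 4 classes. In Slpi libraries the EphA sum was between 25.3 and 27.7 FPKM, below the mock range of 36.1 to 38.0. The EphB sum (51.3 to 56.6, against 59.1 to 62.6 in mock) and the ephrin-B sum (77.8 to 82.1, against 87.0 to 93.1) were lower as well. The ephrin-A sum was between 34.7 and 34.98 in Slpi and between 33.5 and 34.6 in mock libraries. As shares of the family, mock and Slpi libraries overlapped for EphB receptors and ephrin-B ligands. The EphA share was lower in Slpi libraries (13.2% to 14.4%, against 16.5% to 17.1% in mock). The ephrin-A share was higher (17.4% to 18.2%, against 15.0% to 15.9%). The class sums are given as a description, without a test.

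**Figure D3:**
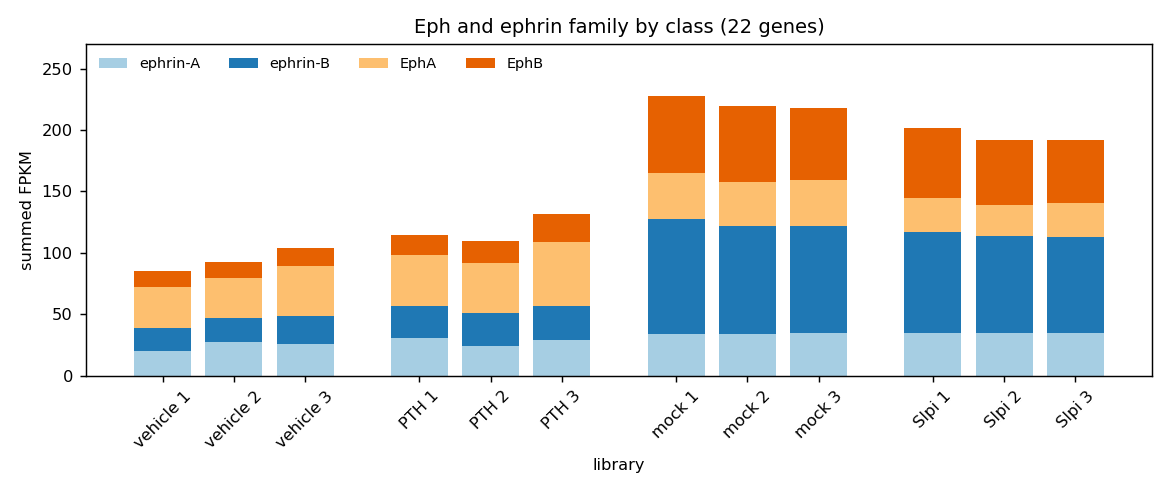
Summed FPKM of the 22 ephrin and Eph genes in each of the 12 libraries, stacked by ephrin-A, ephrin-B, EphA and EphB. EphA receptors are the largest class in sorted osteoblasts (38.1% of the sum with vehicle) and ephrin-B ligands in MC3T3-E1 cells (40.3% in mock).

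To assess whether ephrin and Eph expression differed after intermittent PTH, libraries of PTH-treated and vehicle-treated osteoblasts were compared. *Ephb2* and *Efnb1* rose, and none of the other 8 genes passed the threshold. *Ephb2* was higher with PTH by a log2 fold change of 0.78 and *Efnb1* by 0.56 on the scale of log2(FPKM + 1), which understates the change of low genes. All 10 genes were tested among 13004 genes whose FPKM reached 1 in some library, with limma and Benjamini-Hochberg adjustment over all of them. The 2 calls compare with 15.2% of all tested genes called, 6.38% as higher and 8.85% as lower. A share of 2 in 10 is near this background.

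*Ephb2*, on chromosome 4 from 136647539 to 136835988 of mm10 (minus strand), encodes a receptor of ephrin-B ligands that also binds ephrin-A5. Its FPKM was 2.499, 2.52 and 2.45 in vehicle and 4.59, 4.34 and 6.20 in PTH libraries. All PTH libraries lay above all vehicle libraries, which differed little from one another. The ratio of means was 2.02, and the log2 fold change was 0.78 (standard error, SE, 0.155, 95% interval 0.41 to 1.15, limma adjusted *p* = 0.0252). If each smallest step in FPKM stands for 1 read, these values rest on 73, 58 and 96 vehicle reads and on 150, 159 and 254 PTH reads. The call was lost without any 1 of the vehicle libraries or PTH replicate 1 (adjusted *p* between 0.0526 and 0.0982), and kept without PTH replicate 2, the library with heart muscle markers. With each library left out in turn, its log2 fold change was between 0.65 and 0.86.

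*Efnb1*, on chromosome X from 99136130 to 99148991 (plus strand), encodes the transmembrane ligand ephrin-B1. Its FPKM was 11.7, 9.83 and 13.3 with vehicle and 16.8, 16.6 and 19.2 with PTH, again without overlap. The means were 11.6 ± 1.71 and 17.5 ± 1.42 (SD, n = 3 each), a ratio of 1.51. The log2 fold change of 0.56 (SE 0.135, 95% interval 0.24 to 0.88, limma adjusted *p* = 0.0378) remained between 0.46 and 0.65 when libraries were left out in turn. The call was kept without vehicle replicate 3 and lost without any other library, with adjusted *p* between 0.0557 and 0.123. Without vehicle replicate 1 or 2, at most 1 gene of all those tested was called. Without PTH replicates 2 and 3, 674 and 585 genes were called higher, against 830 in the main fit.

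*Efnb2* and *Ephb4*, the coupling pair, did not pass the threshold. *Efnb2* lies on chromosome 8 from 8617434 to 8661242 (minus strand). It had an FPKM of 6.43, 9.18 and 9.64 in vehicle and 8.44, 8.65 and 8.49 in PTH libraries. The PTH libraries lay within the range of the vehicle libraries, of which replicate 1 was the lowest. The log2 fold change of *Efnb2* was 0.034 (SE 0.158, limma adjusted *p* = 0.893), and the 95% interval from -0.34 to 0.41 includes changes in either direction. *Ephb4*, on chromosome 5 from 137350109 to 137378669 (plus strand), had an FPKM of 3.45, 2.89 and 3.63 with vehicle and 3.15, 4.48 and 4.54 with PTH. PTH replicates 2 and 3 were above all vehicle libraries, and PTH replicate 1 was among them. The log2 fold change was 0.22 (SE 0.166, 95% interval -0.17 to 0.61, limma adjusted *p* = 0.390). An exon of *Ephb4* lies within the span of *Zan* on the opposite strand, and the SMART-Seq protocol does not mark strand. The FPKM of *Zan* was between 0.00685 and 0.163 in these libraries.

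The FPKM of *Efnb2* relative to *Ephb4* was 1.86, 3.18 and 2.65 in vehicle libraries and 2.68, 1.93 and 1.87 in PTH libraries. *Efnb2* was above its receptor gene in each library, and the ranges overlapped. On the log2 scale, with 1 added to each FPKM, the ratio was 1.11 ± 0.334 in vehicle libraries and 0.93 ± 0.225 in PTH libraries (SD, n = 3 each). The difference of -0.18 was smaller than the spread between libraries (exact permutation test, two-sided, *p* = 0.60), and lay between -0.37 and -0.044 when libraries were left out in turn.

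**Figure D4:**
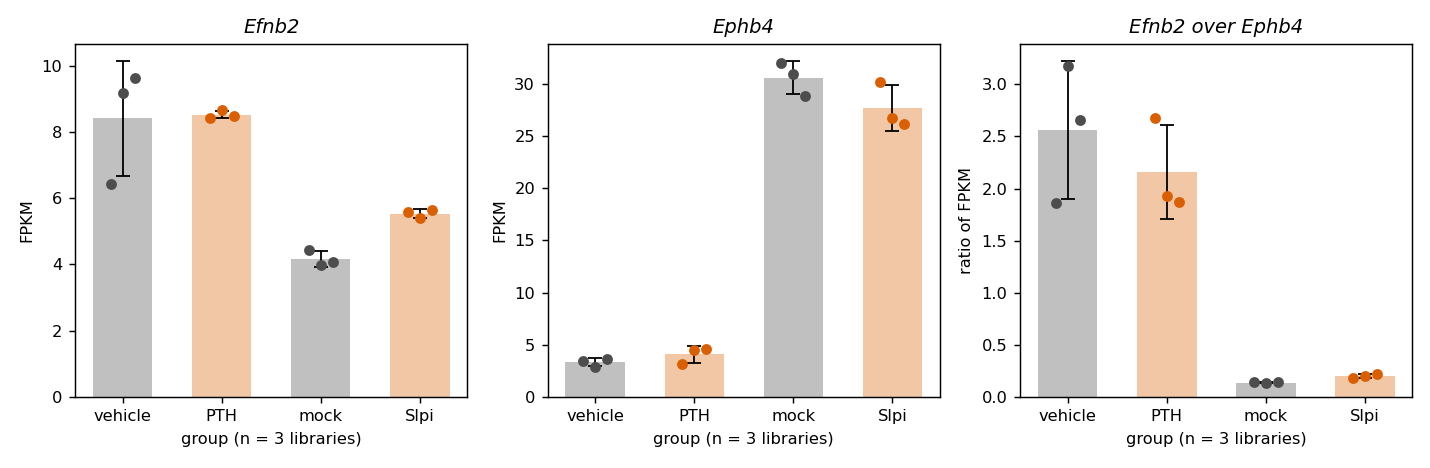
FPKM of *Efnb2* and of *Ephb4*, and the ratio of *Efnb2* to *Ephb4* FPKM, in the 4 groups, with points for libraries, bars for means and error bars for SD (n = 3). The ratio is between 1.86 and 3.18 in sorted osteoblasts of both groups and below 1 in all MC3T3-E1 libraries, with Slpi libraries above mock libraries.

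Among the other ligand genes, *Efna2* and *Efna5* had an unadjusted *p* below 0.05, as had 4353 of 13004 tested genes, but did not pass after adjustment. *Efna2*, on chromosome 10 from 80179482 to 80190010 (plus strand), encodes an ephrin also known from osteoclast precursors. Its FPKM was 1.06, 1.14 and 1.76 with vehicle and 2.25, 2.01 and 3.83 with PTH, a ratio of means of 2.05 (log2 fold change 0.65, SE 0.234, limma adjusted *p* = 0.102). The groups did not overlap, but the values may rest on as few as 13, 11 and 29 vehicle reads and 31, 31 and 66 PTH reads. *Efna5*, a ligand of both EphA receptors and EphB2 on chromosome 17 from 62604184 to 62881317 (minus strand), was at 2.42, 1.65 and 2.22 with vehicle and 3.10, 3.39 and 3.17 with PTH (log2 fold change 0.45, SE 0.155, limma adjusted *p* = 0.0914). *Efna1*, on chromosome 3 from 89271733 to 89281142 (minus strand), was at 18.4 ± 3.31 and 20.2 ± 3.02 FPKM (SD, n = 3 each), and its groups overlapped (log2 fold change 0.14, limma adjusted *p* = 0.592).

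Among the other receptor genes, *Ephb3* alone did not overlap between the groups. *Ephb3*, on chromosome 16 from 21204755 to 21223305 (plus strand), was at 5.64, 6.26 and 7.00 FPKM with vehicle and 7.64, 7.32 and 10.5 with PTH (log2 fold change 0.36, SE 0.161, limma adjusted *p* = 0.162). *Epha2*, on chromosome 4 from 141301240 to 141329384 (plus strand), was at 31.3 ± 3.68 and 38.3 ± 6.53 FPKM (SD, n = 3; log2 fold change 0.28, limma adjusted *p* = 0.234). The 2 highest values of *Epha2* were 45.9 in PTH replicate 3 and 35.6 in vehicle replicate 3, so that the groups overlapped. *Epha4*, on chromosome 1 from 77367185 to 77515088 (minus strand), encodes a receptor of both ephrin classes and was at 2.01 ± 0.238 and 2.40 ± 0.392 FPKM (SD, n = 3; log2 fold change 0.17, limma adjusted *p* = 0.474).

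In total, the groups did not overlap for 5 of the 10 genes, against 40.4% of all tested genes. In these 5 all PTH libraries were higher, against 19.5% of tested genes, and in no gene were they all lower, against 20.9%. The median log2 fold change of the 10 genes was 0.32, and that of all tested genes 0.0066. None of the 10 changed at least 2-fold on this scale at an unadjusted *p* below 0.05, which 5.59% of tested genes passed. The study also used a 2-fold threshold, but did not name this scale. By the ratio of mean FPKM, *Ephb2* (2.02) and *Efna2* (2.05) were above 2-fold, at unadjusted limma *p* of 0.00147 and 0.0261. All 10 fold changes were positive, but the direction of 7 turned when libraries were scaled to 8 osteoblast markers, and those of *Efna1* and *Efnb2* turned without vehicle replicate 1. The scaling to osteoblast markers, chosen after seeing the data, moved the median of all tested genes to -0.45 and the calls from 830 higher and 1151 lower to 96 and 2718. Under it, *Ephb2* had a log2 fold change of 0.32 and *Efnb1* of 0.10 (limma adjusted *p* = 0.180 and 0.567). This scaling moves all genes of a library by the same amount, so the place of the 10 genes relative to the median of all genes cannot change under it. The part of leukocyte, neutrophil and other RNA in these values was not tested.

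**Figure D5:**
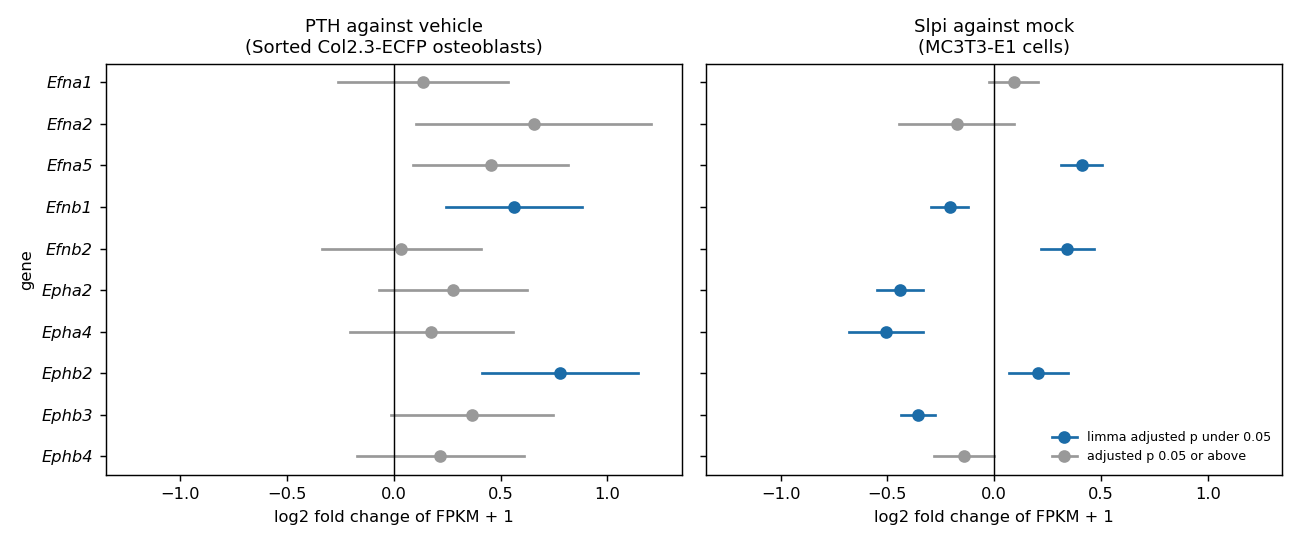
Log2 fold change of FPKM + 1 for the 10 genes, PTH against vehicle in sorted osteoblasts and Slpi against mock in MC3T3-E1 cells, with points for estimates and lines for 95% intervals (n = 3 per group). Blue marks a limma adjusted *p* under 0.05, which *Efnb1* and *Ephb2* passed with PTH, and *Efna5*, *Efnb1*, *Efnb2*, *Epha2*, *Epha4*, *Ephb2* and *Ephb3* with Slpi.

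The other 12 family genes were low in sorted osteoblasts. *Efna3*, *Efna4*, *Efnb3*, *Epha3* and *Ephb6* reached an FPKM of 1 in at least 1 library, and *Epha1*, *Epha5*, *Epha6*, *Epha7*, *Epha8*, *Epha10* and *Ephb1* did not. None of these 5 tested genes was called by limma after adjustment, and 1 had an unadjusted *p* below 0.05, against 4353 of all 13004 tested genes. This was *Epha3*, at 1.78, 1.05 and 2.32 FPKM with vehicle and 2.82, 3.67 and 4.02 with PTH (log2 fold change 0.75, SE 0.219, limma adjusted *p* = 0.0620). *Ephb6*, a receptor that lacks kinase activity, had a log2 fold change of 0.19, *Efnb3* of 0.41, *Efna3* of -0.25 and *Efna4* of -0.15, with adjusted *p* between 0.405 and 0.787.

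Genes that carry signals of Eph receptors and ephrins, or that belong to other ligand and receptor systems of bone cells, were counted in the same fit. Of a list of 66 such genes, 60 were tested, and 5 rose and 5 fell with PTH, against 6.38% and 8.85% of all tested genes. Their median log2 fold change was 0.096. Among 18 receptor-near kinases and adaptors, *Abl2*, a cytoskeletal tyrosine kinase, and *Ptk2*, focal adhesion kinase, rose by 0.57 and 0.49 (limma adjusted *p* = 0.0360 and 0.0443). *Nck2*, an adaptor between receptors and the actin cytoskeleton, fell by 0.95 on the log2 scale (limma adjusted *p* = 0.0391). Among 17 genes of small GTPases, their regulators and downstream proteins, none rose. The 2 that fell both act on Rac. *Chn2*, which encodes a chimaerin that switches Rac off, was at 15.4, 16.95 and 11.3 FPKM with vehicle and 4.09, 3.94 and 2.31 with PTH, and *Tiam1*, which encodes an activator of Rac, was at 2.87, 2.15 and 2.17 with vehicle and 1.05, 0.783 and 0.220 with PTH. On the log2 scale the changes were -1.81 for *Chn2* and -1.04 for *Tiam1*, at limma adjusted *p* of 0.0133 and 0.0342. Leukocyte markers were lower in the same libraries, 9 of 12 without overlap between the groups and 6 of 12 called, and their part in these falls was not tested.

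None of 8 tested genes of ephrin reverse signaling was called by limma, and 1 had an unadjusted *p* below 0.05, against 4353 of all 13004 tested genes. Of 9 sheddases and phosphatases, *Ptprf*, a receptor phosphatase, rose by 0.52 (limma adjusted *p* = 0.0484). Of 8 other ligands and receptors of bone cells, 4 were called, against 15.2% of all tested genes. *Jag1*, a Notch ligand, was at 9.41, 8.80 and 9.73 FPKM with vehicle and 16.0, 14.6 and 17.1 with PTH (log2 fold change 0.71, limma adjusted *p* = 0.0164), and *Plxnb1*, the receptor of Sema4D, rose by 0.80 (limma adjusted *p* = 0.0419). *Dll1*, another Notch ligand, fell from 5.78, 6.23 and 1.60 FPKM to 0.912, 1.08 and 0.346 (log2 fold change -1.52, limma adjusted *p* = 0.0491), so that the Notch ligands moved in opposite directions. *Tnfsf11*, which encodes RANKL, the main signal for osteoclast formation, fell from 11.8, 13.03 and 12.3 FPKM to 6.49, 7.76 and 6.11 (log2 fold change -0.79, limma adjusted *p* = 0.0168). *Tnfsf11* is also expressed by T cells, whose genes *Cd3d*, *Cd3e* and *Cd3g* were called lower in the same libraries, and their part in this fall was not tested. All 10 of these calls were lost without vehicle replicate 1 or without vehicle replicate 2, when at most 1 gene of all those tested was called.

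To examine ephrin and Eph expression under *Slpi* overexpression, Slpi and mock MC3T3-E1 cells were compared. Of the 10 genes, 7 were called, *Efna5*, *Efnb2* and *Ephb2* as higher and *Efnb1*, *Epha2*, *Epha4* and *Ephb3* as lower. The changes were small, with ratios of means between 0.606 and 1.36. In these libraries 60.8% of 11466 tested genes were called at any size of change, 31.9% as higher and 28.9% as lower. Of these 11466 genes, 679 had a larger fall than *Epha4* and 1041 a larger rise than *Efna5*. None of the 10 changed at least 2-fold at an unadjusted *p* below 0.05, and 1.13% of tested genes did. Their median log2 fold change was -0.16, and that of all tested genes 0.0041.

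*Efnb2* was at 4.43, 3.97 and 4.06 FPKM in mock and 5.58, 5.39 and 5.63 in Slpi libraries. No Slpi library overlapped with a mock library, and the ratio of means was 1.33. The log2 fold change was 0.34 (SE 0.0545, 95% interval 0.22 to 0.47, limma adjusted *p* = 8.0e-04). *Ephb4* was at 32.0, 30.9 and 28.9 FPKM in mock and 30.2, 26.7 and 26.2 in Slpi libraries, and Slpi replicate 1 lay within the mock range. Its log2 fold change of -0.14 (SE 0.0610, limma adjusted *p* = 0.0756) did not pass. It did pass with quantile normalization or without mock replicate 3 or Slpi replicate 1, with adjusted *p* of 0.0215, 0.0459 and 0.00919.

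The ratio of *Efnb2* to *Ephb4* FPKM was 0.139, 0.128 and 0.141 in mock and 0.184, 0.202 and 0.215 in Slpi libraries. Each Slpi library was above each mock library, and *Ephb4* remained well above *Efnb2* in both groups. The log2 ratio, with 1 added to each FPKM, was -2.62 ± 0.0629 in mock and -2.13 ± 0.108 in Slpi libraries (SD, n = 3 each). The difference was 0.48 (exact permutation test, two-sided, *p* = 0.10, the smallest that 3 libraries against 3 can give) and between 0.43 and 0.54 when libraries were left out in turn.

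The other ligand genes did not move together. *Efna5* rose from 10.6, 10.04 and 10.7 FPKM in mock to 13.9, 14.6 and 14.1 in Slpi libraries (log2 fold change 0.41, SE 0.0418, limma adjusted *p* = 7.7e-05). *Efnb1* fell from 88.2, 83.7 and 82.4 to 75.6, 72.8 and 71.2 (log2 fold change -0.21, SE 0.0380, limma adjusted *p* = 0.00167). Both ephrin-B genes of the list were thus called, in opposite directions. *Efna1* (11.01 ± 0.568 and 11.8 ± 0.509 FPKM; SD, n = 3 each) and *Efna2* (2.10 ± 0.517 and 1.73 ± 0.184 FPKM) overlapped between the groups, at log2 fold changes of 0.091 and -0.18 and limma adjusted *p* of 0.154 and 0.223.

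Of the receptor genes, both EphA genes and *Ephb3* fell and *Ephb2* rose. *Epha2* was at 34.3, 32.7 and 33.1 FPKM in mock and 25.3, 22.7 and 24.9 in Slpi libraries (log2 fold change -0.44, SE 0.0471, limma adjusted *p* = 9.5e-05). *Epha4* was at 3.00, 2.79 and 3.46 in mock and 1.81, 1.93 and 1.86 in Slpi libraries, the lowest ratio of the 10 genes at 0.606 (log2 fold change -0.51, SE 0.0748, limma adjusted *p* = 5.3e-04). *Ephb3* was at 18.5, 18.2 and 18.7 in mock and 14.4, 14.0 and 14.2 in Slpi libraries (log2 fold change -0.36, SE 0.0350, limma adjusted *p* = 6.4e-05). For each of these 3 genes the gap between the groups was larger than the spread within them. *Ephb2* was at 6.67, 6.86 and 6.49 in mock and 8.27, 8.20 and 7.13 in Slpi libraries (log2 fold change 0.21, SE 0.0608, limma adjusted *p* = 0.0176). Its call was the least firm of the 7, and was lost without mock replicate 3 or Slpi replicate 2 (adjusted *p* = 0.0571 and 0.0629) and without a filter on low values (adjusted *p* = 0.0826). Groups did not overlap for 7 genes, 3 higher and 4 lower, against 67.1% of all tested genes, 34.9% as higher and 32.2% as lower.

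In both experiments *Ephb2* was called higher, while *Efnb1* was called higher with PTH and lower with Slpi. The experiments differ in cells, treatment and, according to the labels, library kit, and a difference between their effects was not tested. Markers of leukocytes were close to absent from the cell line, with 6 of 12 at 0 in all libraries and sums between 0.285 and 0.478 FPKM. The late osteoblast gene *Bglap* was low, between 1.05 and 1.73 FPKM in mock libraries. Osteoblast markers differed between the groups, with 7 of 10 higher in Slpi libraries and *Spp1* lower, among them *Alpl* by 1.71 and *Sp7* by 1.49 on the log2 scale (both at a limma adjusted *p* of 6.4e-08). Whether the ephrin and Eph genes moved with the state of differentiation was not tested.

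Of the 12 other family genes, 3 were tested in MC3T3-E1 cells, and these 3 were called, where 60.8% of all tested genes were. *Efna4* fell from 9.67, 9.38 and 10.3 FPKM to 6.87, 5.62 and 7.10 (log2 fold change -0.52, limma adjusted *p* = 6.0e-04), and *Ephb6* from 5.41, 5.51 and 5.10 to 3.64, 3.46 and 3.82 (log2 fold change -0.45, limma adjusted *p* = 2.1e-04). *Efnb3* was low and rose from 0.508, 0.477 and 0.598 to 0.941, 1.02 and 0.968 (log2 fold change 0.37, limma adjusted *p* = 0.00373). An antisense gene overlaps an exon of *Efna4*. *Epha3*, which was detected in all sorted osteoblast libraries, was listed at 0 in all 6 MC3T3-E1 libraries.

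Of the 66 genes of these signaling lists, 53 were tested in MC3T3-E1 cells, and 15 rose and 18 fell, with a median log2 fold change of -0.042. The share called was thus of the order of the 60.8% of all tested genes. Among genes of small GTPases, their regulators and downstream proteins, *Ngef* rose from 1.52, 1.11 and 1.40 FPKM to 3.00, 3.29 and 2.55 (log2 fold change 0.75, limma adjusted *p* = 2.6e-04). *Ngef* encodes ephexin-1, an exchange factor that acts with EphA4. *Vav2*, an exchange factor recruited by Eph receptors, and *Itsn1* rose by 0.49 and 0.20 on the log2 scale, and *Kalrn*, *Arhgef15* and *Pak1* had log2 fold changes of -0.39, -0.32 and -0.19. Among genes of ephrin reverse signaling, *Rgs3*, which encodes a regulator of G proteins that binds ephrin-B ligands, fell from 15.4, 14.1 and 15.3 FPKM to 10.2, 8.13 and 7.44 (log2 fold change -0.74, limma adjusted *p* = 2.4e-04). *Pick1* and *Tjp1* had log2 fold changes of -0.36 and -0.27, while *Pdzk1*, *Dvl2* and *Ptpn13* rose by 0.27, 0.18 and 0.14.

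Of the receptor-near kinases and adaptors, 4 rose and 5 fell in Slpi cells among 17 tested, against 31.9% and 28.9% of all tested genes. *Abl2*, *Crk* and *Ptk2* rose by 0.28, 0.26 and 0.18 on the log2 scale, and *Nck2*, *Pik3r1* and *Fyn* had log2 fold changes of -0.41, -0.31 and -0.28. Among sheddases and phosphatases, *Ptprf*, *Ptpn1* and *Acp1* rose by 0.43, 0.12 and 0.10. *Adam10*, which encodes a protease that cleaves ephrins, *Adam17* and *Mmp14* had log2 fold changes of -0.19, -0.14 and -0.14. Of the 5 other ligand and receptor genes tested, *Pth1r*, the gene of the PTH receptor, and *Plxnb1* rose by 2.25 and 0.53. *Igf1*, the gene of a secreted growth factor, and *Igf1r*, that of its receptor, had log2 fold changes of -1.27 and -0.15. *Pth1r* was at 15.6, 14.9 and 14.6 FPKM in mock and 78.5, 75.6 and 72.2 in Slpi libraries. The genes named here were called at an adjusted *p* below 0.05.

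The genes whose pattern was most like that of the coupling pair were named by Pearson's *r* of log2(FPKM + 1) over the 6 libraries of an experiment, among genes with a mean FPKM of at least 10. In sorted osteoblasts these were *1700113A16Rik*, *Cetn3* and *Cd2ap* for *Efnb2* (*r* = 0.912, 0.907 and 0.895) and *Rab34* and *Rbm6* for *Ephb4* (*r* = 0.988 and 0.966), of 4929 genes searched. In MC3T3-E1 cells they were *Zfp692*, *Mcl1* and *Atp6v1c1* for *Efnb2* (*r* between 0.995 and 0.996) and *Anapc7*, *Gaa* and *Ppp1r11* for *Ephb4* (*r* between 0.993 and 0.995). The 6 libraries of an experiment share their groups and depths, and in MC3T3-E1 cells 1580 of 6681 genes had an *r* above 0.9 with *Efnb2*. These values are a description of these libraries only.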

How the data were processed

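RNA-Seq values of 12 libraries were analysed, 3 per group, in 2 experiments. According to the methods, the authors mapped 75-base single-end reads to mm10 with TopHat2 2.0.13, Bowtie2 2.2.3 and SAMtools 0.1.19 and deposited FPKM per gene from Cuffnorm (Cufflinks 2.2.1). The gene annotation and the scaling option are not given in the sources used here. The methods describe SMART-Seq v4 and KAPA kits, while the labels of the MC3T3-E1 libraries give a TruSeq stranded mRNA kit. Groups came from the labels, and PTH replicate 3 was numbered from its title. FPKM do not give depth. The step that 1 read makes in low values gave a depth relative to the first control library of 0.787 to 1.40 in sorted osteoblasts and 0.870 to 1 in MC3T3-E1 cells. Reads per gene were recovered in the same way for 7 of the 10 genes in sorted osteoblasts (within 0.05 of a whole number). They may be too low where a step stands for more than 1 read, and they cover counting error only.

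Each experiment was fitted alone with limma (version 3.58.1, R 4.3.3, trended eBayes) on log2(FPKM + 1) of the 13004 and 11466 genes whose FPKM reached 1 in any of the 6 libraries. Benjamini-Hochberg adjustment covered all of them, and a gene was called at an adjusted *p* under 0.05. The log2 ratio of *Efnb2* to *Ephb4* was compared by two-sided exact permutation tests with scipy 1.17.1 (Python 3.11.15, numpy 2.4.6, pandas 2.3.3). Alternatives were a replicate block, no filter, a filter at a mean FPKM of 1, addition of 0.1 in place of 1 (pseudocount), eBayes without a trend, quantile normalization and leaving out each library. Scaling to *Bglap*, *Sp7*, *Runx2*, *Alpl*, *Ibsp*, *Dmp1*, *Pth1r* and *Spp1* was added after seeing the data. Genes named are the 10 members, the other family genes, up to 3 called genes per direction of each signaling list with the largest change, the 3 genes most like *Efnb2* or *Ephb4*, and markers that a result turns on. A gene that this rule names is not reported here. The members and lists were chosen with earlier results of these data known. Positions are from GENCODE M21, and promoters from RefSeq, which held all 10 genes.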

Additional observations from a re-analysis of the deposited data

How the results depend on the processing

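Each group had 3 libraries. With PTH, 2 of the 10 genes were called, against 0 without a filter, 1 without a trend in eBayes, 0 after scaling to osteoblast markers, and between 0 and 1 with a library left out. The *Efnb1* call was lost under these 3 settings (adjusted *p* = 0.103, 0.0519 and 0.567) and the *Ephb2* call without a filter and after scaling (adjusted *p* = 0.0824 and 0.180). Calls over all tested genes moved as well. In the main fit 830 were higher and 1151 lower, and without a filter 10 and 8 of 23284 genes. Without a trend these calls were 593 and 970, and after scaling 96 and 2718. Of the signaling list, 10 genes were called, against 0 without a filter, 5 without a trend, and between 0 and 7 with a library left out, with 0 without vehicle replicate 1 or 2, 3 without PTH replicate 1 and 6 without PTH replicate 3. Over all genes, 1 and 0 genes were called without vehicle replicates 1 and 2, against 3181 and 3053 at an unadjusted *p* under 0.05. Scaling to osteoblast markers gave 15 calls of the signaling list, 0 of them higher. It turned the log2 fold changes of *Efna1* (-0.32), *Efna5* (-0.0050), *Efnb2* (-0.42), *Epha2* (-0.18), *Epha4* (-0.28), *Ephb3* (-0.094) and *Ephb4* (-0.24), and leaving out vehicle replicate 1 turned those of *Efna1* (-0.0054) and *Efnb2* (-0.13). With each library left out in turn, *Efnb2* ranged from -0.13 to 0.13 and *Efna1* from -0.0054 to 0.25. No cause was tested.

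With Slpi, between 6 and 8 of the 10 genes and between 25 and 33 of the signaling list were called over the alternatives run. Over all genes, 3658 were higher and 3315 lower of 11466 tested in the main fit, 60.8% in all. Without a filter 3007 and 2835 of 24346 genes were called. Replicate numbers were not taken to pair the libraries in the main fits. Deviations from the group means of same-numbered libraries had correlations of 0.029, 0.073 and 0.102 in sorted osteoblasts. In MC3T3-E1 cells they were 0.039, -0.052 and -0.00026. Each vehicle library correlated best with the PTH library of its number, but PTH replicate 1 did so with vehicle replicate 2 (0.069). Not every MC3T3-E1 library correlated best with its own number. With a replicate block, 2 of the 10 genes were called with PTH and 8 with Slpi, where *Ephb4* gained a call (adjusted *p* = 0.0157), and 14 of the signaling list with PTH, 9 of them higher. Over all tested genes, this block gave 1028 higher and 1234 lower with PTH, and 3752 and 3420 with Slpi. The exact permutation *p* of the *Efnb2* to *Ephb4* ratio within pairs was 0.75 with PTH and 0.25 with Slpi. A *p* of 0.25 is the smallest that this test within pairs can give here.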
